A study of Mus musculus with 6 samples.

Results

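The 41 genes described here are those by which endothelial cells, the cells that line blood vessels, are usually recognized: adhesion and junction proteins of the vessel wall, secreted and matrix proteins, transcription factors, and genes of capillary lipid transport and blood flow control. The rule lists them by name and uses no measured value, but it was drawn up with earlier results of these data known. Of 42 names, 41 had a row in a table of 20066 genes and 1, *Tie1l*, had none. Receptors of the vascular endothelial growth factors (VEGF) and of the angiopoietins were not part of the choice. The table came from RNA sequencing of cells labelled as cardiomyocytes, the contracting cells of the heart, from C57BL/6 mice of age P0-1. In 3 libraries the cells had been given cell-permeable α-ketoglutarate (αKG), an intermediate of the Krebs cycle, at a labelled 100 µM for 96 h, and in 3 libraries its solvent dimethylsulfoxide (DMSO) for the same time. Per the study's methods, newborn hearts were dissociated, the cells were plated on fibronectin, and the compound was added after overnight culture. A step that removed endothelial cells was not stated there. In its section on staining, the study describes a sample of newborn cardiomyocytes as a single isolation from hearts that had been pooled. The labels do not say whether this holds for the 6 libraries, and p-values measure the spread between them.

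Endothelial cells are held together by VE-cadherin and PECAM1, and are anchored to a basement membrane that they lay down in part themselves. Their genes are driven in large part by ETS factors such as ERG and FLI1, together with SOX factors of the F group. In heart, capillaries run beside nearly every muscle fibre and hand over oxygen and fatty acids, and endothelial cells remain in primary cultures of cardiomyocytes in varying number.

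Values below are normalized counts, that is, reads per gene divided by a factor for each library and rounded to whole numbers. The estimated number of reads in genes lay between 3726069 and 4427439 per library. The library αKG replicate 3 stood apart: over all genes its log2 values correlated at 0.977 to 0.98 with the DMSO libraries and at 0.962 and 0.963 with αKG replicates 1 and 2. It was kept, and counts of called genes are also given without it. Averaged over the 6 libraries, 34 of the 41 reached 10 normalized counts. Per kilobase of exon, the DMSO means ran from 0.436 for *Vwf* to 178 for *Nrp1*, with *Cdh5* at 117, *S1pr1* at 107 and *Apln* at 93.5. On the same scale the cardiomyocyte genes *Tnnt2*, a thin filament protein, and *Myl2*, the ventricular light chain, stood at 394 and 510. The processing tools include a program that can remove duplicate reads, which would lower abundant genes most. The gap to these genes, and changes of abundant genes, may therefore be understated.

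In αKG, 14 of the 41 endothelial genes were lower and 0 were higher than in DMSO (limma on log2(value + 1), Benjamini-Hochberg adjusted p under 0.05 over all genes). Among all genes tested, 0.952% were called lower and 2.83% higher, 3.78% in either direction. The median log2 fold change of the 41 genes was -0.80, against 0.04 over all genes, and 35 of them had a negative value. Surface, junction, matrix and secreted proteins made up 13 of the 14 called: *Pecam1*, *Cdh5*, *Esam*, *Podxl*, *Emcn*, *Cd93*, *Ecscr*, *Plvap*, *Eng*, *Mmrn2*, *Egfl7*, *Esm1* and *Apln*. The remaining gene was the transcription factor *Erg*. In bulk RNA, fewer endothelial cells and less of these RNAs per endothelial cell cannot be told apart. For 27 genes every αKG library lay below every DMSO library, which was so for 14.6% of all genes, for 2 every αKG library lay above, against 13.7%, and for 12 the groups overlapped. At an unadjusted p under 0.05, 27 genes were lower and 2 higher, against 12.4% and 15.7% of all genes.

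Without αKG replicate 3, all 14 genes were still called, among 24 lower and 3 higher, but the share of all genes called also rose, to 17.9% lower and 19.3% higher. The calls depended on each of the other 5 libraries: without any 1 of them, none of the 41 was called by limma, while 20 to 23 were lower at an unadjusted p under 0.05, against 6.26% to 7.79% of all genes. None was called either with the replicate number as a block, without the variance trend, or with DMSO replicates 2 and 3 averaged. In these fits 27, 26 and 23 were lower at an unadjusted p under 0.05, against 10.8%, 7.75% and 6.74% of all genes. Each of the 14 genes had an unadjusted p under 0.05 in all 15 alternative fits.

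**Figure D1:**
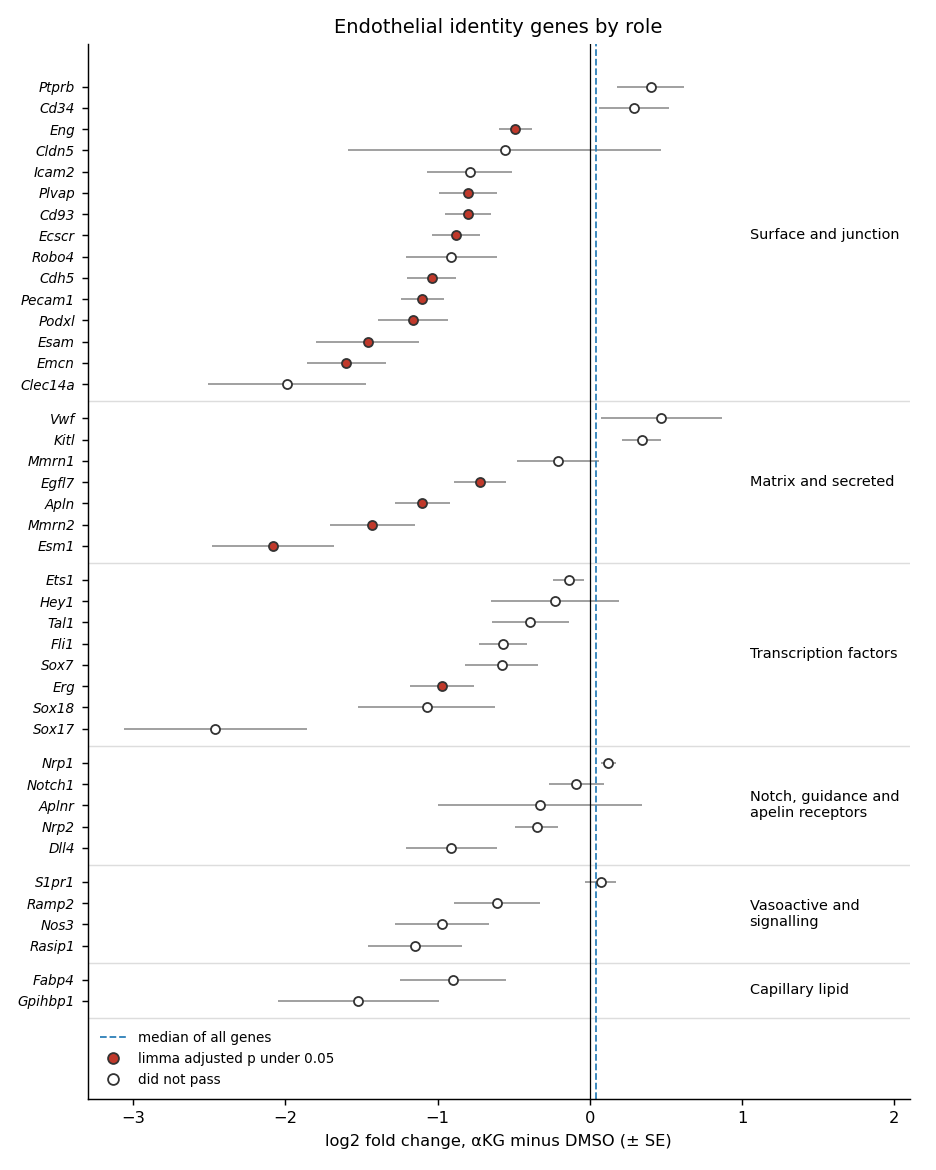
Log2 fold change of each of the 41 endothelial genes in αKG against DMSO with its standard error, ordered within role; filled points passed an adjusted p of 0.05 in limma and the dashed line is the median of all genes, 0.04. Of the 14 filled points, 13 lie in the upper groups and 1 is *Erg*, with called surface and junction genes down to -1.60 and matrix and secreted genes down to -2.08.

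To show the upstream DNA of genes that fell together, windows of 250 bases ending at the RefSeq transcription start were read (RefSeq table, GRCm38.p6). The table held 18 of the 41 genes, 6 of them among the 14 called. Below are the mucin *Emcn*, of capillaries and veins, the matrix protein *Egfl7*, whose intron also holds the endothelial microRNA miR-126, the proteoglycan *Esm1*, the gene with the largest fall among those called, and the stem and vessel surface mucin *Cd34*, which was not lower. Capitals mark AGGAAG or its reverse CTTCCT, a longer form of the GGAA core bound by ETS factors, and in *Emcn* also AACAAT, a SOX core. Other GGAA or TTCC letters are not marked, and the *Esm1* window holds some. The windows are chr3:137340828-137341077 (plus strand), chr2:26580833-26581082 (plus strand), chr13:113209409-113209658 (plus strand) and chr1:194938571-194938820 (plus strand), in this order, each written 5′ to 3′. For *Egfl7* the table lists 3 starts, of which 1 is shown.
Emcn: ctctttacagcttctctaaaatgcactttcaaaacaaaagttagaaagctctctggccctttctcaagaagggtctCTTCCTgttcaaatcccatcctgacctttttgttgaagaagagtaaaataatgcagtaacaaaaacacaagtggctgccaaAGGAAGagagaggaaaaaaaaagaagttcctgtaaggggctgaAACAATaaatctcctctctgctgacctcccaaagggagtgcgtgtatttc
Egfl7: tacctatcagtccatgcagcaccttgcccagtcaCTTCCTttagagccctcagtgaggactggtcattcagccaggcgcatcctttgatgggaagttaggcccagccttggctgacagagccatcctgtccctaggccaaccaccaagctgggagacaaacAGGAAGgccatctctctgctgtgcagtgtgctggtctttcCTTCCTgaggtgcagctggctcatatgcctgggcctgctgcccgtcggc
Esm1: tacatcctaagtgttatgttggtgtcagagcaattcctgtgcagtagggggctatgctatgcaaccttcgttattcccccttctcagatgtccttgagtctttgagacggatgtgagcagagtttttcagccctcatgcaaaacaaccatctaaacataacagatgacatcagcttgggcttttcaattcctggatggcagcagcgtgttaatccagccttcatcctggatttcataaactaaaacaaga
Cd34: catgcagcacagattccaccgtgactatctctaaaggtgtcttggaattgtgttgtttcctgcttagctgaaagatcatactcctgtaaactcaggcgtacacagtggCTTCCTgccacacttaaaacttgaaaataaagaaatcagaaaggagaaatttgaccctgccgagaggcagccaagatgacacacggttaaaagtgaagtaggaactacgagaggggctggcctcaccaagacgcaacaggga

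On either strand, the longer ETS letters AGGAAG were found in 8 of the 18 windows (44.4%), against 29.2% of 27025 promoter windows in the table. Among called genes the count was 4 of 6 (*Apln*, *Egfl7*, *Emcn* and *Eng*), and among genes without a call 4 of 12 (*Cd34*, *Nrp1*, *Rasip1* and *Robo4*). The SOX letters AACAAT or ATTGTT were in 2 windows (11.1%), those of *Emcn* and *Mmrn1*, against 9.62% of all, and the GATA letters AGATAA or TTATCT in 1 (5.56%), that of *Tal1*, against 10.2%. The *Emcn* window alone held letters of 2 kinds, which did not overlap. A match is a description of the sequence and no evidence of binding.

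Surface and junction genes formed the largest group, and 9 of its 15 members were lower and 0 higher. Without αKG replicate 3, 12 were lower and 2 higher, against 17.9% and 19.3% of all genes. *Pecam1* (chr11:106654217-106750628), an adhesion molecule at contacts between endothelial cells and a standard marker of them, stood at 339, 303 and 307 normalized counts in the control libraries and at 129, 134 and 184 in αKG replicates 1 to 3. The groups did not overlap, and replicate 3 was the highest of the αKG libraries. The log2 fold change was -1.10 ± 0.14 (SE, n = 3 per group, limma adjusted p = 0.00778), the smallest p among the 41 genes. *Cdh5* (chr8:104101625-104144511), which encodes VE-cadherin, had 519, 442 and 518 against 222, 195 and 316. Again every αKG library was below the DMSO libraries with replicate 3 closest to them, at a log2 fold change of -1.04 ± 0.16 (adjusted p = 0.0181). *Esam*, a tight junction adhesion molecule, had 62, 44 and 60 with DMSO and 28, 11 and 23 with αKG. Here replicate 3 lay between the other two αKG libraries, and the log2 fold change was -1.46 ± 0.34 (adjusted p = 0.0475).

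Among the sialomucins of the vessel surface, *Podxl* had 151, 132 and 162 against 59, 49 and 97 normalized counts and *Emcn* 113, 94 and 99 against 24, 29 and 51. Neither overlapped between groups, and in both αKG replicate 3 lay nearest to DMSO. *Emcn*, endomucin, gave the larger log2 difference, -1.60 ± 0.26 (adjusted p = 0.0223), and *Podxl*, podocalyxin, which mesothelial cells also carry, gave -1.16 ± 0.23 (adjusted p = 0.0362). *Cd34*, of the same family, is given further on.

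*Cd93*, a lectin-like receptor of vessel growth, had 571, 573 and 515 normalized counts against 281, 269 and 422, and its partner in the matrix, *Mmrn2* (multimerin 2), had 168, 158 and 163 against 52, 40 and 102. Both pairs of groups were separate, with replicate 3 again the nearest to DMSO. The log2 fold changes were -0.80 ± 0.15 for *Cd93* (adjusted p = 0.0343) and -1.43 ± 0.28 for *Mmrn2* (adjusted p = 0.036). *Clec14a*, another receptor that binds *Mmrn2* protein, had 36, 32 and 28 against 6, 3 and 19. Its groups were separate as well and the log2 fold change was -1.99 ± 0.52, but the adjusted p was 0.0609.

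*Ecscr*, an endothelial surface regulator of chemotaxis, had normalized counts of 92, 79 and 85 with DMSO and of 43, 45 and 50 with αKG. *Plvap*, the protein of the diaphragms that close caveolae and fenestrae, had 88, 77 and 84 against 50, 38 and 55. *Eng*, endoglin, a co-receptor for BMP9 and TGF-β, had 252, 268 and 229 against 192, 172 and 167. In these 3 genes the αKG libraries lay close together, all below DMSO, and for *Eng* replicate 3 was the lowest. Log2 fold changes were -0.88 ± 0.16 for *Ecscr* (adjusted p = 0.0299), -0.80 ± 0.19 for *Plvap* (adjusted p = 0.0478) and -0.49 ± 0.11 for *Eng* (adjusted p = 0.0435), the smallest change among those called. Strand is not said to have been used in counting, and *Plvap* overlaps *Gtpbp3*, and *Eng* overlaps *Fpgs*, on the opposite strand. The partner means were 184 and 34 normalized counts over all libraries. Per the study's methods, reads that fell in several genes were left out of the counts. Whether the exons of these genes overlap was not checked.

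The surface genes without a call were *Icam2*, *Robo4*, *Clec14a*, *Cldn5*, *Cd34* and *Ptprb*. *Icam2*, a leukocyte adhesion ligand, and *Robo4*, a vessel guidance receptor, had log2 differences of -0.79 and -0.91 with groups that did not overlap, at adjusted p of 0.115 and 0.101. *Cldn5*, the tight junction claudin of endothelium, was barely detected, at 11, 0 and 7 against 0, 2 and 9 normalized counts, and its log2 difference of -0.56 had an SE of 1.03.

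**Figure D2:**
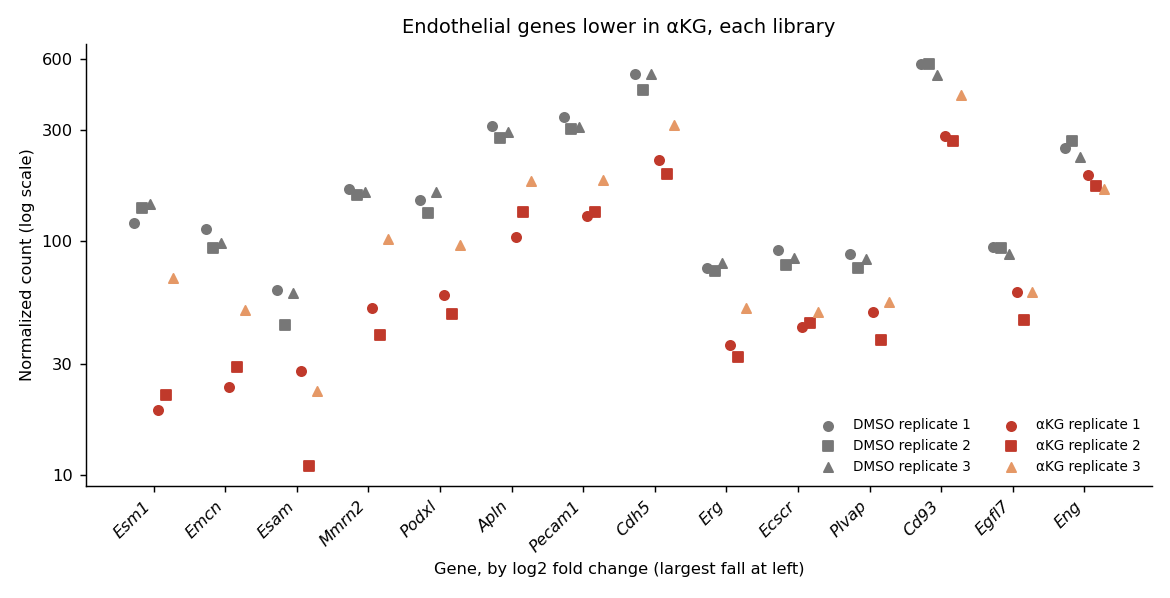
Normalized counts, on a log axis, of the 14 endothelial genes lower in αKG, with 1 point per library, ordered by log2 fold change. Every αKG point lies below every DMSO point of the same gene, and αKG replicate 3 (light triangles) is the αKG library nearest to DMSO in most genes, for *Esm1* at 70 against 19 and 22 in replicates 1 and 2.

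Of the 7 secreted and matrix genes, 4 were lower and 0 higher, with or without αKG replicate 3. Over all genes, 0.952% were lower with that library and 17.9% without it. *Esm1* (chr13:113209659-113218098), endocan, a proteoglycan secreted by endothelial tip cells, had normalized counts of 120, 139 and 145 with DMSO and of 19, 22 and 70 with αKG. Replicate 3 held more than 3 times the value of the other αKG libraries and was still below all DMSO libraries. On the log2(value + 1) scale it was 4.23-fold lower (log2 fold change -2.08 ± 0.40, adjusted p = 0.0347), the largest fall among the 14. *Apln*, apelin, a peptide also released by tip cells, had 312, 278 and 293 against 105, 134 and 182. The groups were separate and the log2 fold change was -1.10 ± 0.18 (adjusted p = 0.0204). *Egfl7*, a matrix protein that guides vessel tube formation, had 95, 94 and 88 against 61, 46 and 61. All αKG values were lower, with replicates 1 and 3 equal, and the log2 fold change was -0.72 ± 0.17 (adjusted p = 0.0486). *Egfl7* overlaps *Agpat2*, mean 83.3, on the opposite strand.

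The other 3 secreted genes were *Mmrn1*, *Vwf* and *Kitl*. *Mmrn1*, multimerin 1, had 37, 29 and 26 normalized counts against 30, 31 and 19, overlapping between groups. *Vwf*, von Willebrand factor of endothelial storage granules and platelets, was at 8, 5 and 8 against 15, 9 and 7. Both were low, and *Vwf* rested on at most 15 counts in any library. *Kitl*, the ligand of the receptor KIT, which stromal cells also make, had 147, 133 and 147 against 154, 185 and 205. Here every αKG library was above every DMSO library, and the log2 difference of 0.34 ± 0.13 had an adjusted p of 0.134.

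Of the 8 transcription factors, 1 was lower and 0 higher, and all 8 log2 differences were negative. Without αKG replicate 3, 5 were lower and 0 higher, against 17.9% and 19.3% of all genes. *Erg*, the ETS factor most restricted to endothelium, had 77, 75 and 81 normalized counts against 36, 32 and 52. The groups were separate, at a log2 fold change of -0.97 ± 0.21 (adjusted p = 0.0424). The related ETS factors did not pass. *Fli1* had 96, 101 and 104 against 72, 76 and 55, and *Ets1*, which many other cells use, had 241, 240 and 233 against 223, 227 and 197. Neither overlapped between groups, in both αKG replicate 3 was the lowest library, and the log2 differences were -0.57 ± 0.16 (adjusted p = 0.0749) and -0.14 ± 0.10 (adjusted p = 0.355). A test of the differences among the 3 factors was not made. *Tal1*, a factor of early blood and endothelium, showed -0.39 with separate groups.

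The SOX F factors specify arterial and lymphatic endothelium and act partly in place of each other. *Sox17* had normalized counts of 14, 12 and 16 with DMSO and of 3, 0 and 4 with αKG, separate groups on few reads, with a log2 difference of -2.46 ± 0.60 and an adjusted p of 0.0527. It was called when libraries were scaled to the same total, under quantile normalization, with a pseudocount of 10 and without αKG replicate 3, and in no other alternative fit. *Sox7* had 43, 47 and 48 against 27, 25 and 42 and *Sox18* 7, 16 and 10 against 3, 4 and 7, with log2 differences of -0.58 and -1.07 and no call. *Hey1*, a Notch target, had 12 or fewer counts in every library and groups that overlapped.

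None of the 5 Notch, guidance and apelin receptors was called. At an unadjusted p under 0.05 limma gave 2 lower and 1 higher, against 12.4% and 15.7% of all genes. Without αKG replicate 3, 0 were called lower and 1 higher, against 17.9% and 19.3% of all genes. *Nrp1*, neuropilin 1, a co-receptor for VEGF and semaphorin 3A found on many cell types, was the highest of all 41 genes, with normalized counts of 1719, 1769 and 1733 under DMSO and of 1940, 1880 and 1852 under αKG. Every αKG library was above DMSO, by a log2 difference of 0.12 ± 0.05 (adjusted p = 0.167). *Nrp2*, the neuropilin of veins and lymphatics, had 190, 163 and 182 against 164, 138 and 120, where 1 αKG value fell within the DMSO range. *Notch1* had 193, 212 and 187 against 247, 181 and 143, with αKG replicate 1 above and replicates 2 and 3 below all DMSO libraries. *Dll4*, the Notch ligand of tip cells and arteries, had 36, 21 and 24 against 12, 16 and 13, at -0.91 ± 0.30 (adjusted p = 0.0997). *Aplnr*, the apelin receptor, had at most 3 counts in any library, so no fold is given.

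Genes of blood flow and signalling held no call among 4, and those of capillary lipid handling none among 2. At an unadjusted p under 0.05 in limma, 2 of each were lower, against 12.4% of all genes. Without αKG replicate 3, 2 of the 4 and 1 of the 2 were called lower, against 17.9% of all genes. *Nos3*, endothelial nitric oxide synthase, had 39, 60 and 40 normalized counts against 24, 15 and 32, and *Rasip1*, a RAS-interacting protein needed for vessel lumens, had 48, 37 and 50 against 26, 12 and 24. In both the αKG libraries lay below DMSO, at log2 differences of -0.97 and -1.15 with adjusted p of 0.0911 and 0.0676. *Rasip1* overlaps the antisense gene *A030001D20Rik* (mean 31.3). *Ramp2*, a partner of the adrenomedullin receptor, showed -0.61 with overlapping groups. *S1pr1*, the sphingosine-1-phosphate receptor that keeps barriers tight, had groups that overlapped, at 330, 339 and 311 against 304, 339 and 387, and its log2 difference was 0.07 ± 0.10. *Gpihbp1*, which carries lipoprotein lipase to the capillary lumen, had 14, 7 and 10 against 1, 3 and 6, and *Fabp4*, a fatty acid carrier of heart capillaries and fat cells, had 29, 25 and 29 against 8, 20 and 18. Their groups did not overlap, but at -1.52 ± 0.53 and -0.90 ± 0.35 neither passed, with adjusted p of 0.108 and 0.138.

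*Ptprb*, the phosphatase VE-PTP of endothelial junctions, and *Cd34*, which some heart fibroblasts carry too, showed another order of libraries. *Ptprb* had normalized counts of 448, 481 and 440 with DMSO and of 760, 744 and 389 in αKG replicates 1 to 3. *Cd34* had 196, 177 and 206 against 312, 279 and 151. For both, αKG replicates 1 and 2 were above and replicate 3 below all DMSO libraries, so that over 3 libraries the log2 differences, 0.40 ± 0.22 and 0.29 ± 0.23, did not pass (adjusted p = 0.248 and 0.428). Without αKG replicate 3, *Ptprb*, *Cd34* and *Nrp1* were called higher, with log2 fold changes of 0.72, 0.61 and 0.13. This split arrangement held for 2 of the 41 genes (4.88%), for 4.4% of all genes, and for 15 of 66 other endothelial genes (22.7%), among them the VEGF and angiopoietin receptors *Flt1*, at 485, 510 and 499 against 733, 719 and 411, and *Tek*. The summed fibroblast markers were split in part likewise, at 4650 to 4889 in DMSO and 10195, 9760 and 4740 in αKG. Their part in the values of *Ptprb* and *Cd34* was not tested.

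**Figure D3:**
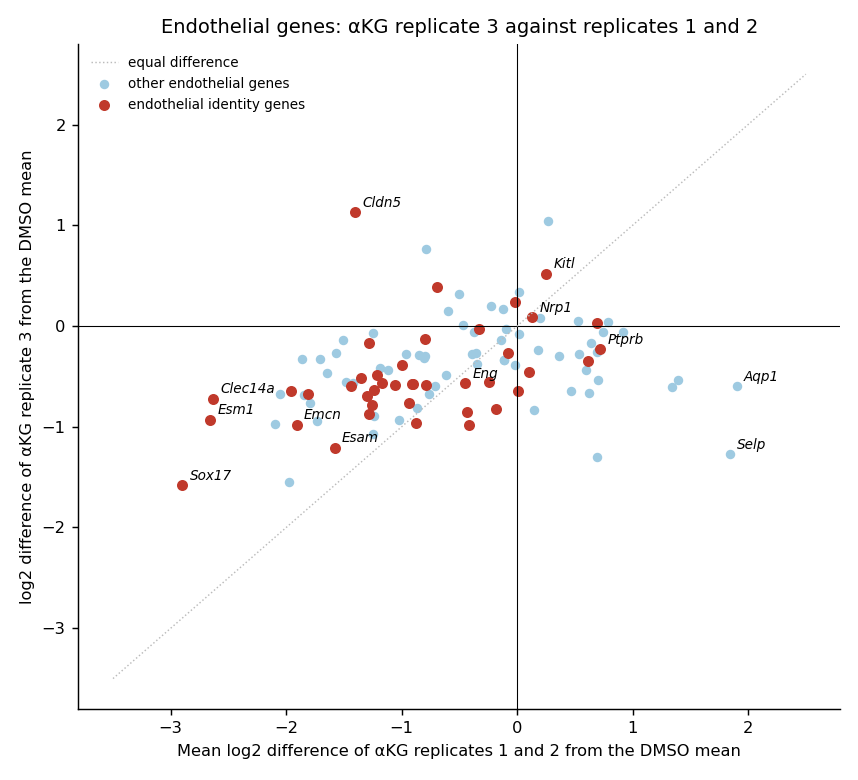
Log2 difference from the DMSO mean in αKG replicate 3 against the mean log2 difference in αKG replicates 1 and 2, with 1 point per gene (log2(value + 1)); the dotted line marks equal differences. Most of the 41 endothelial identity genes lie at lower left above the dotted line, that is, lower in all αKG libraries with a smaller shift in replicate 3, whereas *Ptprb* and other endothelial genes such as *Selp* and *Aqp1* lie at lower right.

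The shift itself differed between αKG libraries. The median log2 difference of the 41 genes from the DMSO mean was -0.89, -0.91 and -0.58 in αKG replicates 1 to 3, and lay between -0.06 and 0.04 in the DMSO libraries. In the 14 genes called, the shift of replicate 3 was 35.0% (*Esm1*) to 127% (*Eng*) of the mean shift of replicates 1 and 2, with a median of 52.3%. In 11 of the 14, replicate 3 lay between the DMSO libraries and both other αKG libraries.

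Whether the genes moved by the same amount was asked by subtracting in each library the mean log2 value of 5 of them, *Pecam1*, *Cdh5*, *Esam*, *Icam2* and *Robo4*, and fitting again. These 5 had a median log2 fold change of -1.04, and 3 of them were themselves called, so that on this scale 75.9% of all genes were higher and 0.0249%, 5 genes, lower. Because most genes passed on this scale, the adjustment over all genes raised p only slightly. Adjusted p of this fit therefore give little protection against false calls among many genes. Of the other 36 endothelial genes, 10 were higher than the reference and 2 lower, and for 24 a difference was not shown. The 10 were *Cd34*, *Ptprb*, *Eng*, *Vwf*, *Kitl*, *Ets1*, *Notch1*, *Nrp1*, *Nrp2* and *S1pr1*, with relative log2 changes from 0.56 for *Eng* (95% interval 0.06 to 1.06, adjusted p = 0.0378) to 1.52 for *Vwf* (0.41 to 2.63, adjusted p = 0.0128). *Eng* was thus lower than in DMSO but by less than the reference genes. Against the reference, *Esm1* was lower, with a relative log2 change of -1.02 (interval -1.67 to -0.37, adjusted p = 0.0049), and so was *Sox17*, with -1.40 (-2.61 to -0.19, adjusted p = 0.0338). These 2 genes were among the 5 of the whole table below the reference, with *Csf2rb*, *Fam167b* and *Plekhh1*. *Sox17* and *Vwf* had few reads, *Vwf* at most 15 counts in any library, and neither passed against DMSO. For *Apln* the interval ran from -0.53 to 0.45 and for *Erg* from -0.55 to 0.72. With the mean of all detected endothelial genes as the reference, 8 were higher and 6 lower, and without αKG replicate 3 the first reference gave 14 higher and 5 lower.

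**Figure D4:**
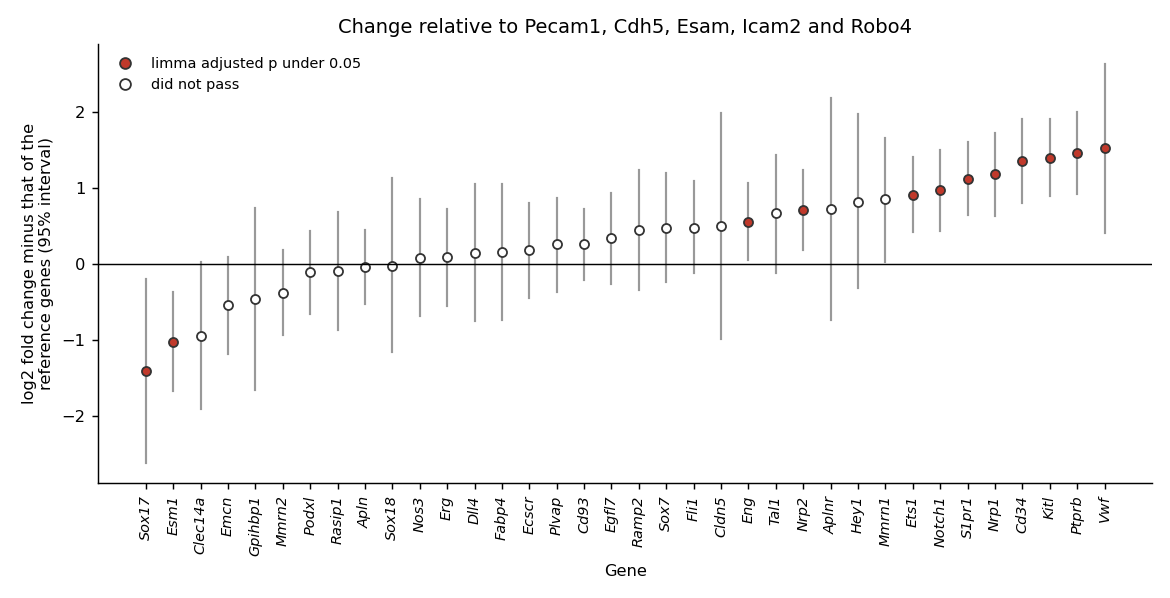
Log2 fold change of 36 endothelial genes in αKG after subtracting the mean log2 value of *Pecam1*, *Cdh5*, *Esam*, *Icam2* and *Robo4* in each library, with 95% intervals; filled points passed an adjusted p of 0.05 in limma. *Sox17* (-1.40) and *Esm1* (-1.02) lie below 0 and 10 genes above it, from *Eng* (0.56) to *Vwf* (1.52). *Sox17* and *Vwf* had few reads.

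The 41 genes were set beside 66 other endothelial genes, of which 10 were lower and 0 higher (median log2 fold change -0.27). At an unadjusted p under 0.05, 29 of them were lower and 5 higher in limma, against 12.4% and 15.7% of all genes. Without αKG replicate 3, the adjusted calls were 28 lower and 18 higher, against 17.9% and 19.3% of all genes. Of the 5 VEGF and angiopoietin receptor genes, *Kdr* (-1.14 ± 0.21, adjusted p = 0.0293), *Flt4* (-0.67 ± 0.14, adjusted p = 0.0389) and *Tie1* (-0.85 ± 0.19, adjusted p = 0.0445) were lower, whereas *Flt1* (0.27) and *Tek* (0.38) were not called. Of 41 further pan-endothelial genes, 7 were lower. The smallest p of these belonged to *Adgrf5*, an adhesion receptor, which stood at 653, 592 and 579 normalized counts against 319, 280 and 319, with little spread among the αKG libraries (-0.99 ± 0.09, adjusted p = 0.00266). Next came *Procr*, the protein C receptor (-1.19 ± 0.18), *Gimap6*, a small GTPase (-1.47 ± 0.26), and *Adgrl4*, an adhesion receptor of growing vessels (-1.44 ± 0.28). None of 10 arterial, 8 venous or lymphatic and 2 endocardial genes was called by limma, with medians of 0.06, -0.14 and 0.06. At an unadjusted p under 0.05, 3, 3 and 1 of these were lower and 1, 0 and 1 higher. Without αKG replicate 3, 3, 3 and 1 were called lower and 4, 2 and 1 higher. The shares over all genes are those given above for the 66 genes. Levels in these lists ran from *Lyve1*, at 0 to 4 normalized counts, to *Prox1*, at 1025 to 1457. *Prox1* is not restricted to lymphatic endothelium, so its level is not read as that of lymphatic cells.

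Markers of other cells were read in the same fit. None of 12 cardiomyocyte markers was called (4 higher and 1 lower at an unadjusted p under 0.05 in limma), and their median log2 difference from DMSO was 0.19, 0.14 and 0.02 in αKG replicates 1 to 3. Their summed normalized counts were 79108 to 81755 in DMSO and 112477, 115578 and 83791 in αKG, a sum made up mostly of *Ttn*, the giant sarcomere protein titin, at 51569, 54216 and 53157 against 80306, 84136 and 55569. None of 12 fibroblast markers (7 higher, 0 lower unadjusted) and none of 10 epicardial markers (2 higher, 0 lower unadjusted) was called with all libraries. Of all genes, 15.7% were higher and 12.4% lower at an unadjusted p under 0.05 in limma. Without αKG replicate 3, 10 of 12 fibroblast, 10 of 10 epicardial and 6 of 12 cardiomyocyte markers were called higher, and 1 cardiomyocyte marker lower, where 19.3% of all genes were higher and 17.9% lower. The epicardial sum was 492 to 516 in DMSO and 1318, 1269 and 464 in αKG. The epicardial and fibroblast sums were thus above DMSO in αKG replicates 1 and 2, where the median of the 41 endothelial genes was lowest. In replicate 3 the epicardial sum was below DMSO and the fibroblast sum lay within the DMSO range. Summed, the 41 endothelial genes were at 6832 to 7002 in DMSO and 5745, 5506 and 5651 in αKG, without that order of libraries. *Nrp1* was the largest part of that sum in every library, at 1719, 1769 and 1733 in DMSO and 1940, 1880 and 1852 in αKG. The 66 other endothelial genes summed to 12578 to 12812 in DMSO and 12973, 12675 and 11422 in αKG, lowest in replicate 3. Of 11 mural markers, *Cspg4* (0.66 ± 0.13) and *Cnn1* (3.17 ± 0.57) were higher (5 higher and 1 lower without αKG replicate 3). At an unadjusted p under 0.05 in limma, 3 mural markers were higher and 2, *Kcnj8* and *Abcc9*, lower. The mural sum was 4627 to 4740 in DMSO and 5430, 4987 and 5160 in αKG, and *Abcc9* was its largest part in every library. *Abcc9* is not restricted to mural cells, so neither this sum nor the fall of *Abcc9* is read as mural. Single mural genes ranged from *Rgs5* and *Kcnj8*, at 6 or fewer counts in every library, to *Pdgfrb*, at 220 to 347, and *Abcc9*, at 1495 to 2114. Macrophage markers were listed for 5 of 12 names, with sums of 24 to 43, platelet markers for 1 of 8 (*Itga2b*, 17 to 28) and erythroid markers for 1 of 8 (*Alas2*, 0 to 4), and none of these was called or had an unadjusted p under 0.05. Of 16 cell cycle genes, 4 were higher (*Mki67*, *Top2a*, *Bub1* and *Cenpf*), and 4 without αKG replicate 3, with sums that already ran from 4779 to 8767 in DMSO and from 10144 to 11613 in αKG. The part of these other cells in the endothelial values was not tested.

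**Figure D5:**
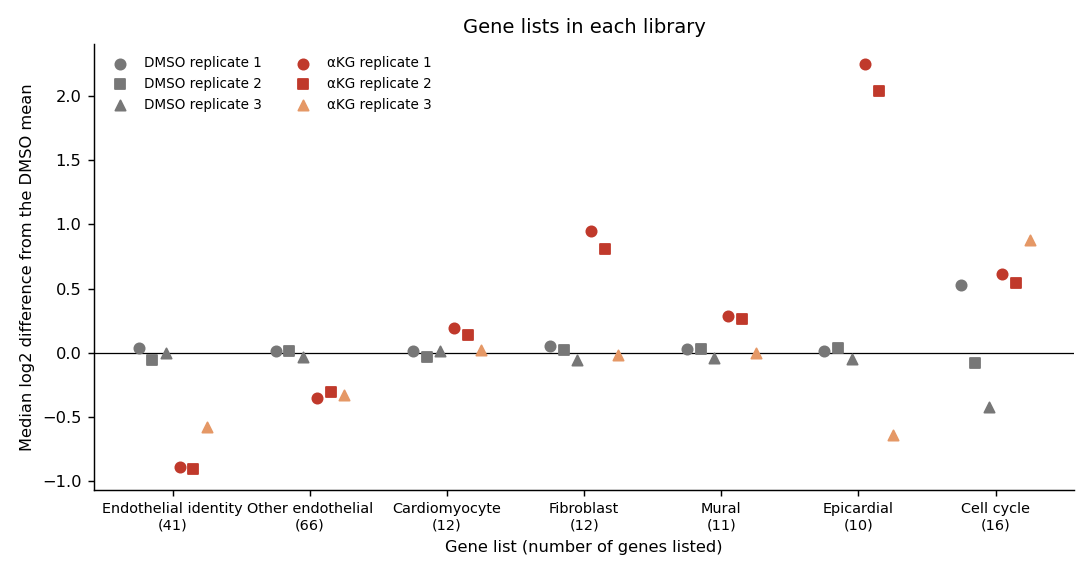
Median log2 difference from the DMSO mean over the genes of each list, with 1 point per library and the number of genes in parentheses. The 41 endothelial identity genes lie at -0.89, -0.91 and -0.58 in αKG replicates 1 to 3, whereas fibroblast and epicardial lists are above 0 in replicates 1 and 2 but not in replicate 3.

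Features that the choice of genes did not use were compared with the size of the change. Over the 41 genes, exon length and the mean log2 difference of αKG replicates 1 and 2 had a Spearman rank correlation of 0.45, and the difference in replicate 3 one of 0.22, so that shorter genes tended to have the more negative differences. Over the 13403 genes that reached a mean of 10 the values were 0.13 and 0.08. For GC content of the longest transcript the 41 genes gave -0.19 and -0.06, and all such genes -0.21 and -0.17. The points share libraries and depth, so these values describe the genes and are given without a test. Spans of 11 of the 41 genes overlapped another listed gene, 8 of them on the opposite strand.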

How the data were processed

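The 6 libraries (3 DMSO, 3 αKG, grouped by the treatment in the labels) were prepared with a stranded total RNA kit. Per the study's methods and the submitters' processing notes, the authors trimmed reads (Trimmomatic 0.39), aligned them to mm10 (STAR 2.7.10a), counted reads in exons (featureCounts 2.0.3) and normalized with DESeq2 (1.30.1). Picard (2.27.1) is also among the tools listed, which the study's ChIP-seq methods use to remove duplicate reads. Their deposited numbers are treated as a score: reads divided by a size factor per library and then rounded, hence no raw counts. The value of 1 read, 0.9259 to 1.1188, was estimated from the spacing of low values and gave the reads per library.

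All 20066 genes entered 1 limma fit (limma 3.58.1, R 4.3.3, with Python 3.11.15 for tables and plots) with treatment as the only term, a variance trend, a pseudocount of 1, which understates changes of low genes, and no filter. P-values were Benjamini-Hochberg adjusted over all genes. Count models were not run on these values. The fit was also run on simulated reads. No library stood apart in them, unlike αKG replicate 3 here, so that run cannot show how the calls hold in these data. The labels do not say whether replicate numbers pair the samples. Deviations of same-numbered libraries from their group means correlated at -0.0744, 0.136 and 0.00192, which with 3 libraries per group cannot decide this. The block is therefore an alternative. Exon lengths came from GENCODE M21, with positions equal for 99.0% of genes.

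Members and lists were chosen with earlier results of these data known. Values per library are given for called genes, for uncalled genes with separate groups and a mean of at least 100, and for genes higher in αKG. Values of *Notch1*, *Nrp2* and members with few reads were added after they were seen, as were the split genes and those below the reference. Other endothelial lists name up to 4 called genes by p. Other marker genes, and uncalled genes of the other endothelial lists, that are named with a value were likewise chosen after their values were seen. The labelled concentration differs from that in the study's methods.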

Additional observations from a re-analysis of the deposited data

How the results depend on the processing

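Against 14 genes lower, a pseudocount of 0.1 gave 6, limma-voom on estimated reads 9, and each of 3 other choices 0: no variance trend, the replicate block, and DMSO replicates 2 and 3 averaged. Leaving out 1 library gave 0 to 24. An unadjusted p under 0.05 gave 27 lower and 2 higher, and 0 to 3 were higher with 1 library left out. Over all genes, 759 calls became 346 with a pseudocount of 0.1, 27 without the trend, 46 with the replicate block, 338 with limma-voom, 19 with the DMSO pair averaged, 5648 unadjusted and 0 to 7466 with 1 library left out. Whether the replicate numbers pair the samples is not stated in the labels. In this balanced design the block cannot change a fold change, only its error. The 10 other endothelial genes called became 0 without the trend, 1 with the replicate block, 1 with the pair averaged and 0 to 46 with 1 library left out. The 2 genes below the reference became 1 with a mean of at least 10, a pseudocount of 10, limma-voom or the pair averaged, 6 with all members as reference, and 1 to 5 with 1 library left out. The cause of these differences was not tested. The median of the 41 genes was -0.61 with a pseudocount of 10 and -0.91 to -0.68 with 1 library left out. The 10 genes above the reference became 7 to 14 over all alternatives.

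Of 608 values of the 41 genes under the alternatives, 456 kept direction and call, 128 lost a call, 16 gained one and 8 changed sign. With 1 library left out, log2 differences that crossed 0 ran from -1.66 to 0.26 for *Cldn5* (0.14 without DMSO replicate 1, 0.26 without αKG replicate 1), from -0.93 to 0.10 for *Aplnr* (0.07 without DMSO replicate 3, 0.10 without αKG replicate 1), from -0.46 to 0.10 for *Hey1* (without DMSO replicate 3), and, positive or negative without αKG replicate 3, from -0.33 to 0.01 for *Mmrn1*, -0.29 to 0.10 for *Notch1* and -0.02 to 0.15 for *S1pr1*. Depth limits the 7 genes with a mean under 10, *Cldn5*, *Vwf*, *Sox17*, *Sox18*, *Hey1*, *Aplnr* and *Gpihbp1*, in which single reads moved the value.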
